A study of Arabidopsis thaliana with 2 samples.

Results

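Long chains of overlapping nucleosome calls were examined in a map of nucleosomes from Arabidopsis thaliana seedlings. A chain was taken as at least 8 nucleosomes, in order along a chromosome, of which each begins before the one in front of it has ended. The chains were therefore chosen by the listed starts and ends alone, and their length, steps and overlaps are given as descriptions of that choice. There were 2328 such chains among 225903 runs of listed nucleosomes, where a run is any such series and may be 1 nucleosome. They held 23176 of 397452 listed nucleosomes, or 5.83%, and their spans added up to 2.53 Mb, or 2.12% of the nuclear genome.

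The map came from micrococcal nuclease sequencing of 1 library of nrpe1 and 1 library of Col-0. nrpe1 carries a mutation in the gene for the largest RNA polymerase V subunit, Col-0 is the wild type, and both were seedlings of 2 to 3 weeks under long days. The authors' list pools both genotypes without marking either, so that nrpe1 was not set against Col-0, and a chain may hold positions from both. With 1 pooled list, no replicates and unknown depth, no test between samples could be made. Spreads are given over the 5 chromosomes, which belong to the same libraries and are not replicates.

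A nucleosome wraps about the same length of DNA wherever it sits, and neighbours on 1 DNA molecule are separated by linker DNA that the nuclease cuts. Intervals that overlap by a large part cannot be occupied together on 1 molecule, and a sample of many cells can show them side by side when positions differ from cell to cell. In Arabidopsis, the sequence around the centromeres is rich in silenced transposons, many of them annotated as pseudogenes, and RNA polymerase V takes part in RNA-directed DNA methylation, which silences transposons and repeats.

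Most chains were only slightly longer than the lower limit. Of all chains, 825 (35.4%) had exactly 8 nucleosomes, 995 had 10 or more, 144 had 15 or more and 23 had 20 or more. The median was 9 nucleosomes and the longest chain had 30. The median span was 1004 bp, within a range of 707 to 3463 bp. The limit cuts through a continuous distribution: just below it lay 1466 runs of 7 nucleosomes, with a median score of 0.761, against 0.762 in chains of 8. The score is the authors' own value for each nucleosome and has no stated definition.

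Up to 12 nucleosomes, runs tended to be continued more often the longer they already were. There were dips, such as at 7 nucleosomes in gene-poor windows and at 10 on the arms. Of runs in gene-poor windows, 49.5% had a second nucleosome, against 34.7% of runs on the arms. Gene-poor windows are stretches of 500 kb whose density of protein-coding genes is under 50% of the chromosome median, and the rest is called arms. Among runs of 8 or more, 68.1% in gene-poor windows and 61.0% on the arms held a further nucleosome. Among runs of 11 or more the shares were 68.3% in gene-poor windows and 63.0% on the arms, and among runs of 13 or more 73.7% in gene-poor windows and 63.6% on the arms. Among runs of 12 or more they met at 69.4%, from 258 runs in gene-poor windows and 170 on the arms.

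**Figure D1:**
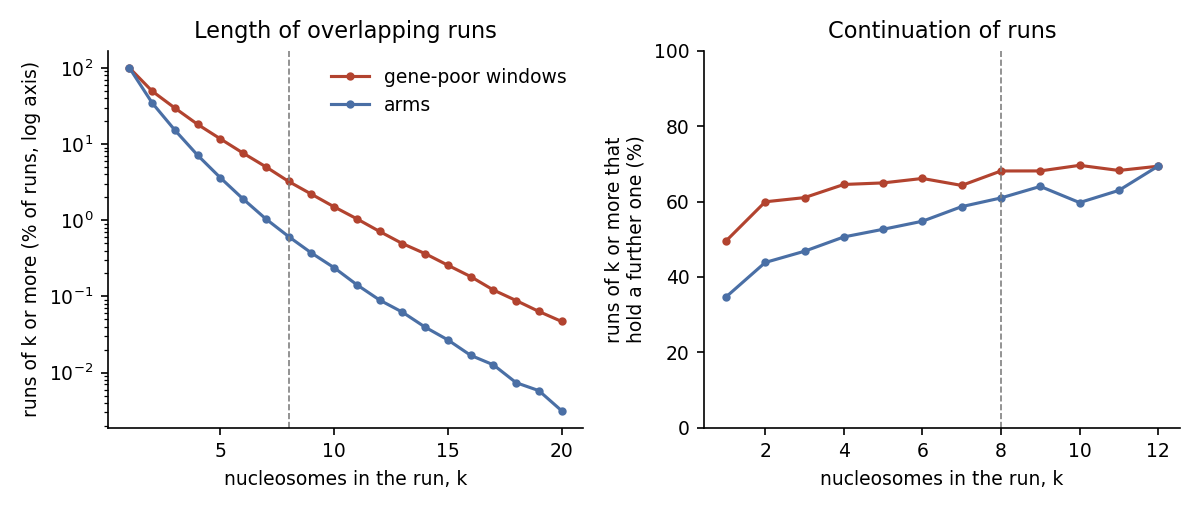
Left, percent of runs (log axis) with at least k overlapping nucleosomes, and right, percent of those that hold a further nucleosome, for gene-poor windows and arms; the dashed line marks the limit of 8. Runs of 8 or more made up 3.23% of runs in gene-poor windows and 0.610% of runs on the arms. The right-hand curve for gene-poor windows lies above that for the arms up to 11 nucleosomes, where gene-poor windows stand at 68.3% and arms at 63.0%, and the curves meet at 12.

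Neighbouring centres in chains stood a median of 103 bp apart (quartiles 92 and 117 bp, range 60.5 to 171.5 bp, 20848 steps), and the smoothed distribution peaked at 97 bp. By chromosome the median step lay between 102.5 and 104 bp. In gene-poor windows it was 103.5 bp and on the arms 102 bp. Shorter runs of 3 to 7 nucleosomes had a median step of 102 bp with the same peak, so that the chains were longer but hardly wider in step. Neighbours in chains overlapped by a median of 39 bp, from 1 to 89 bp, against 40 bp in runs of 2 to 7.

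Distances across a neighbour follow from the steps that the choice of chains bounds, and are given as values. From a centre to the next but 1 the median was 208 bp (quartiles 189.5 and 229.5 bp) with a peak at 194 bp, and in runs of 3 to 7 the median was 206 bp. Between neighbouring nucleosomes that overlapped nothing and lay under 300 bp apart, the median was 190 bp (quartiles 167.5 and 225 bp) with a peak at 174 bp. The mean step of a chain varied from 82.5 to 132 bp among the 2328 chains, with quartiles of 100.1 and 110.4 bp. Listed intervals had a median length of 139 bp in chains and 138 bp outside them.

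The ends of chains lay close to other listed nucleosomes. These distances use the same starts and ends as the choice of chains and pool both compartments, so they are descriptions. The next listed nucleosome beyond a chain's end began a median of 46 bp away (quartiles 19 and 121 bp), and at 52.6% of the ends it was closer than 50 bp. For runs of 2 to 7 nucleosomes the median was 100 bp, and for nucleosomes without overlap 136 bp. Another chain lay within 1 kb of 543 chains (23.3%), and in 132 cases 2 chains followed each other with no other run between.

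Chains were concentrated in gene-poor windows, most of which surround the centromeres. There were 1170 chains in 18.5 Mb of gene-poor windows, or 63.2 per Mb, and 1158 in 100.6 Mb of arms, or 11.5 per Mb, a ratio of 5.50. Gene-poor windows were above the arms on each of the 5 chromosomes, by ratios that reached from 3.53 on chromosome 2 to 6.75 on chromosome 5. Of chain nucleosomes 51.6% lay in gene-poor windows, against 19.3% of other nucleosomes. Conversely, chains took in 14.2% of the nucleosomes listed in gene-poor windows and 3.58% of those on the arms.

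**Figure D2:**
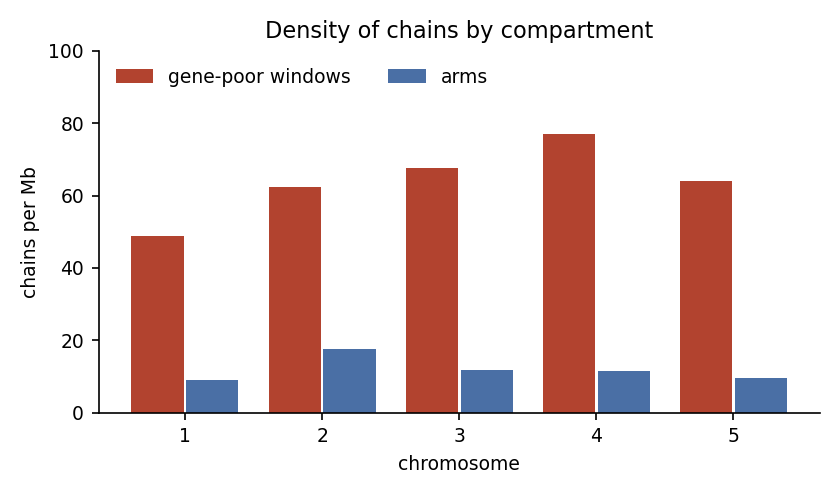
Chains per Mb (linear axis from 0) in gene-poor windows and on the arms of each chromosome, 1 bar per compartment. Gene-poor windows range from 48.8 per Mb on chromosome 1 to 77.0 per Mb on chromosome 4, and arms from 9.12 per Mb on chromosome 1 to 17.7 per Mb on chromosome 2.

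Single windows spread widely around these values. The median was 32 chains in the 37 gene-poor windows and 5 in the 203 arm windows. Each gene-poor window held at least 6 chains, and 6 arm windows held none. The richest window of all counted as arm: it lies at 3000001 to 3500000 of chromosome 2 and held 86 chains, where this chromosome is known to carry a large insert of mitochondrial origin. Whether reads of mitochondrial DNA were placed in this window is not stated and was not tested. The arm window next to it in rank, on chromosome 4 from 2500001 to 3000000, held 29. The richest gene-poor windows were on chromosome 4 from 3500001 to 4000000 with 56 chains, on chromosome 5 from 11500001 to 12000000 with 54, and on chromosome 3 from 13500001 to 14000000 with 53.

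Pseudogenes held far more of the chain nucleosomes than of the others. Pseudogene is a label of the gene table, and many silenced transposons around the centromeres carry it. Transposons and other models under this label were not told apart. Of the chain nucleosomes 49.9% had their centre in a pseudogene, against 13.2% of other nucleosomes. Over the 5 chromosomes the share ran from 46.5 to 57.4% in chains and from 9.72 to 16.4% outside them, and the ranges did not overlap. The difference was 36.4 ± 3.84 percentage points (SD, n = 5 chromosomes), higher in chains on 5 of 5.

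Protein-coding genes went the other way, with 33.0% of chain nucleosomes and 67.4% of the others. The chromosome means were 33.0 ± 5.25% in chains and 66.9 ± 4.05% outside them (SD, n = 5 chromosomes), lower in chains on 5 of 5. Intergenic sequence beyond 1 kb of a protein-coding gene held 13.1% of chain nucleosomes and 10.5% of the others. Within gene-poor windows this turned round, with 20.6% of chain nucleosomes and 35.9% of the others, and on the arms it was 5.16% of chain nucleosomes and 4.42% of the others. The flanks of protein-coding genes, up to 1 kb on both sides, held 2.13% of chain nucleosomes and 6.51% of the others.

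The excess of pseudogenes was present within each compartment. In gene-poor windows, where pseudogenes are common, they held 71.8 ± 5.90% of chain nucleosomes and 46.9 ± 2.37% of the others. On the arms they held 27.0 ± 2.79% of chain nucleosomes and 5.39 ± 1.40% of the others (SD, n = 5 chromosomes). Chains were higher on 5 of 5 chromosomes in both compartments.

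**Figure D3:**
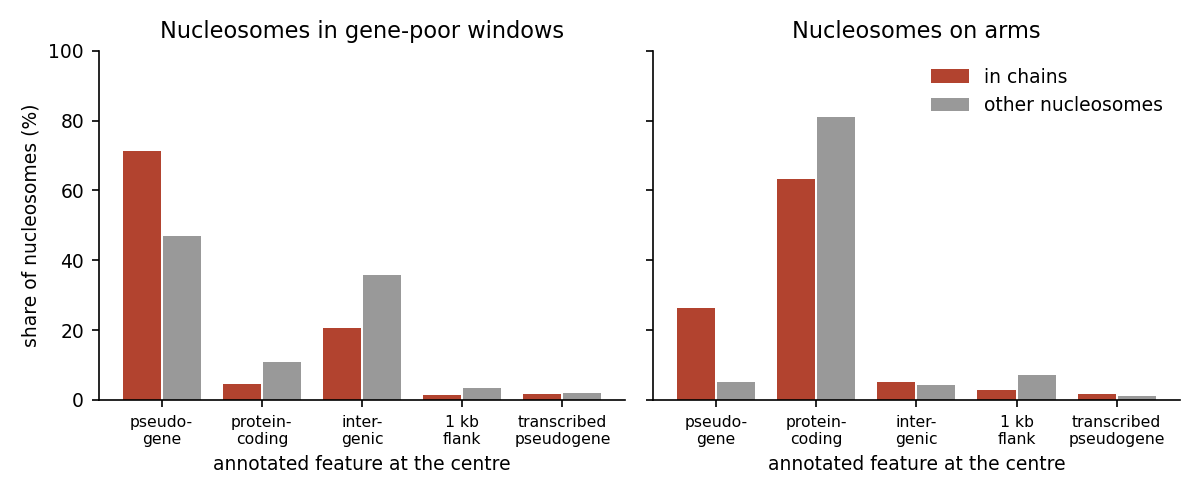
Share of nucleosomes (percent, linear axis from 0) by the annotated feature at their centre, in chains and among other nucleosomes, for gene-poor windows (left) and arms (right); each nucleosome is counted under 1 feature, with protein-coding genes first. Pseudogenes take 71.3% of chain nucleosomes and 46.9% of the others in gene-poor windows, and 26.3% against 5.06% on the arms.

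The rate at which a class of gene contributed to chains differed less between compartments for pseudogenes than for the list as a whole. In pseudogenes 18.9% of the listed nucleosomes belonged to a chain, which was 6.44 times the 2.94% in protein-coding genes. For pseudogenes the share was 20.1% in gene-poor windows and 16.2% on the arms, a ratio of 1.24. For protein-coding genes it was 6.59% in gene-poor windows and 2.82% on the arms, a ratio of 2.34, and for all nucleosomes the ratio was 3.98. Over chromosomes, pseudogenes ranged from 17.2 to 21.4% and protein-coding genes from 2.50 to 3.98%.

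The longer the run, the larger the part of it that lay in pseudogenes. Pseudogenes held 6.98% of nucleosomes without overlap, 15.1% of those in runs of 3 and 37.2% of those in runs of 7. In chains of 8 or 9 they held 42.5%, in chains of 10 to 14 they held 53.9%, in chains of 15 to 19 they held 64.9%, and in the 23 chains of 20 or more they held 76.8%. Protein-coding genes declined over the same classes of chain, through 40.3%, 29.9% and 13.5% to 6.72%. The share of chains in gene-poor windows was 47.0%, 52.9%, 62.8% and 73.9% in these 4 classes.

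Most chains lay within 1 gene model. A single model enclosed all centres of 1416 chains (60.8%). It was a pseudogene for 668 chains and a protein-coding gene for 722. Of nucleosomes outside chains, 13.2% had their centre in a pseudogene and 67.4% in a protein-coding gene. No such count of enclosed runs is given for shorter runs. Chains with at least 50% of their nucleosomes in pseudogenes numbered 1167, those with as much in protein-coding genes 828, and 256 chains touched neither.

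Counted by gene, pseudogenes were also more often crossed by a chain, meaning that at least 1 chain nucleosome had its centre in the gene. Of 3917 pseudogenes 992 were crossed, or 25.3% (exact 95% interval 24.0 to 26.7%), against 865 of 27444 protein-coding genes, or 3.15% (2.95 to 3.37%). These intervals cover counting error only. At least 2 chains crossed 225 of the pseudogenes and 39 of the protein-coding genes. Transcribed pseudogenes, a separate class in the gene table, were crossed in 50 of 926 cases, or 5.40% (4.03 to 7.06%), and long non-coding RNA genes in 51 of 3480, or 1.47% (1.09 to 1.92%).

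Longer genes have more room for a chain, and the difference between the classes was present in each length class over the whole genome. The median length was 3371 bp for crossed pseudogenes and 1566 bp for the others, and 2870 bp for crossed protein-coding genes and 2059 bp for the others. Under 1 kb, 5.04% of pseudogenes and 1.49% of protein-coding genes were crossed. Between 1 and 2 kb, 19.7% of pseudogenes and 2.01% of protein-coding genes were crossed. Between 2 and 4 kb it was 30.9% of pseudogenes and 3.48% of protein-coding genes. Between 4 and 8 kb it was 49.3% of pseudogenes and 7.09% of protein-coding genes, and from 8 kb up 72.0% of 25 pseudogenes and 9.76% of 287 protein-coding genes. In gene-poor windows under 1 kb the intervals overlapped widely, at 5.75% (4.08 to 7.84%) of pseudogenes and 4.48% (2.53 to 7.28%) of protein-coding genes. From 8 kb up in gene-poor windows they overlapped in part. The shares were 68.75% (41.3 to 89.0%) of 16 pseudogenes and 16.7% (2.09 to 48.4%) of 12 protein-coding genes. On the arms alone the shares between 4 and 8 kb were 43.7% (37.9 to 49.7%) of 286 pseudogenes and 7.01% (6.11 to 8.01%) of 2881 protein-coding genes. Whether reads of repeated sequence were placed at 1 or several copies is not stated in the labels or the file, so positions within near-identical copies are uncertain, and the part of this in the excess over pseudogenes was not tested.

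The place of chain nucleosomes within the genes that they crossed depended on the measure. In crossed protein-coding genes 60.0% of chain nucleosomes and 50.5% of the others had their centre in the middle of the gene, at least 25% of its length from both ends. In crossed pseudogenes it was 51.0% of chain nucleosomes and 48.3% of the others. In bp, chain nucleosomes were nearer to the closest gene end, at a median of 831 bp against 1061 bp for the others in crossed protein-coding genes, and of 838 bp against 987 bp in crossed pseudogenes. Closer than 200 bp to a gene end lay 6.96% of chain nucleosomes and 8.32% of the others in crossed protein-coding genes. The gene table used gives no strand, so starts and ends of genes were not told apart.

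Chain nucleosomes scored lower than the rest of the list, and most of that difference was shared with other overlapping nucleosomes. Their median score was 0.763 (quartiles 0.660 and 0.850), against 0.792 (0.692 and 0.867) for the 374276 others, a difference of -0.0284. Over chromosomes the difference was -0.0285 ± 0.00377 (SD, n = 5), negative on 5 of 5. Nucleosomes without overlap had a median of 0.821 and those in runs of 2 to 7 had 0.770, so that chains stood -0.0066 from the other overlapping nucleosomes. By chromosome this smaller difference lay between -0.00987 and -0.00134. It was wider on the arms than in gene-poor windows, and wider in protein-coding genes than in pseudogenes. Of chain nucleosomes 12.8% scored below 0.6, against 8.92% of the others, and 10.3% scored 0.9 or more, against 13.2%.

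Scores in chains were higher in gene-poor windows, with a median of 0.770, than on the arms, with 0.755. Chain nucleosomes in pseudogenes had a median of 0.768, and those in protein-coding genes 0.751. Runs of 2 to 7 had the same order by smaller margins, with 0.775 in gene-poor windows and 0.768 on the arms. Their medians were 0.773 in pseudogenes and 0.767 in protein-coding genes. Over all nucleosomes outside chains the order was reversed, with 0.790 in gene-poor windows and 0.792 on the arms. There it was 0.784 in pseudogenes and 0.789 in protein-coding genes. Among chains the median did not decline with length: it was 0.763 in chains of 8 or 9, 0.761 in chains of 10 to 14, 0.767 in chains of 15 to 19 and 0.771 in chains of 20 or more.

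Near the ends of the chains higher and lower scores tended to alternate. The nucleosomes at the ends had a median of 0.782, those at the second place from an end 0.747, those at the third 0.765 and those at the fourth 0.756. The end stood above the second place, and the third place above the second and the fourth, on 5 of 5 chromosomes. The third place led the fourth by little on chromosome 3, at 0.765 and 0.764, and on chromosome 5, at 0.7642 and 0.7640. Further inside, the order broke: the fifth place was below the fourth on chromosome 3, at 0.760 and 0.764, and below the sixth on chromosome 4, at 0.756 and 0.765. Scores of direct neighbours differed by a median of 0.128 (20848 pairs), and those of next neighbours but 1 by 0.111 (18520 pairs). This order also held on 5 of 5 chromosomes. The quartiles at each place are far wider than these steps, from 0.645 to 0.837 at the second place.

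The alternation was not particular to chains. In runs of 3 the ends had a median of 0.778 and the middle 0.745, and in runs of 7 the places from the end inward had 0.774, 0.750, 0.761 and 0.750. In runs of 3 to 7 direct neighbours differed by 0.128 and next neighbours but 1 by 0.108. Correlations across pairs in chains were weak, at -0.106 for direct neighbours and 0.0618 for next neighbours but 1, and the pairs share nucleosomes.

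**Figure D4:**
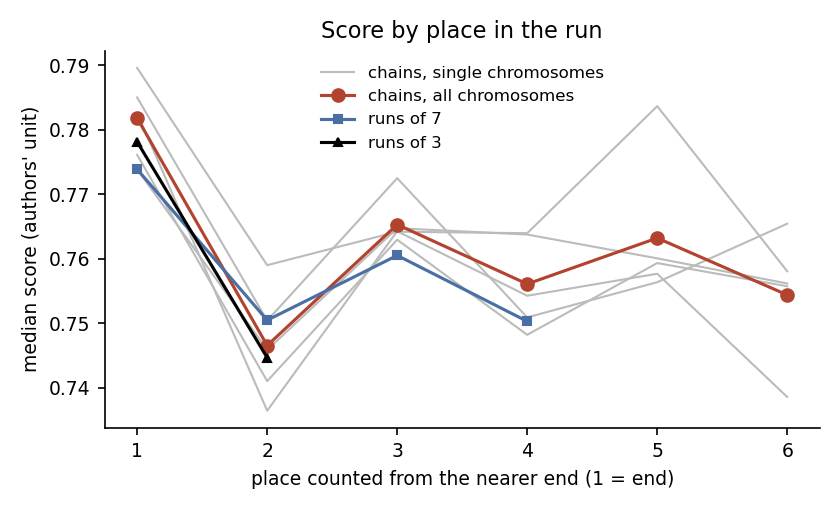
Median score (authors' unit; the axis does not start at 0) by place from the nearer end of the run, for chains on all chromosomes, chains on each chromosome, runs of 7 and runs of 3. In chains the median is 0.782 at the end, 0.747 at the second place and 0.765 at the third, and runs of 7 and of 3 also dip at the second place.

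Among the 2328 chains, 2 had each of their nucleosomes at or above the median score of the list. When the chains were rebuilt from nucleosomes at or above the median score of the list, 7 chains with 59 nucleosomes were found. This leaves out about 50% of the nucleosomes, so that runs become shorter whatever the scores are, and 5 of the 7 were parts of longer chains of the whole list. All 7 lay in gene-poor windows, on chromosomes 3, 4 and 5. The longest, of 10 nucleosomes, lay on chromosome 5 at 11722721 to 11723809 with scores from 0.792 to 0.968 and a median of 0.893, in no annotated gene. It belongs to a chain of 16 in the whole list. One of 8 on chromosome 5 at 12123190 to 12124103, in the pseudogene AT5G32486, had the highest median score, 0.909. On chromosome 3 a chain of 9 at 15041449 to 15042495 in the pseudogene AT3G42996 had 9 nucleosomes in the whole list as well, with scores from 0.800 to 0.917.

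The 10 longest chains lay mostly in pseudogenes. Of these 10, 9 had at least 12 nucleosomes in pseudogenes and 1 had none. The lowest of the 9 was the chain of 28, with 12 in a pseudogene. The longest chain, of 30 nucleosomes, lay on chromosome 1 at 15046656 to 15050119, and all of its centres were in the pseudogene AT1G40095. The median step was 111 bp, within a range of 85 to 157 bp. Its scores ran from 0.524 to 0.914 with a median of 0.816, and 16 of the 30 reached the median of the list. The pseudogene held 45 chain nucleosomes in 2 chains.

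The second longest, of 29, lay on chromosome 5 at 13263768 to 13266803, and 18 of its centres were in the pseudogene AT5G34985. Its scores ran from 0.519 to 0.974 with a median of 0.751. The third, of 28, lay on chromosome 5 at 10097291 to 10100338, with 12 centres in the pseudogene AT5G28085, and it also met the long non-coding RNA gene AT5G04665. Its scores ran from 0.569 to 0.932 with a median of 0.784. In all 3 of these chains scores moved up and down along the whole length, and none had its low scores at the ends alone.

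**Figure D5:**
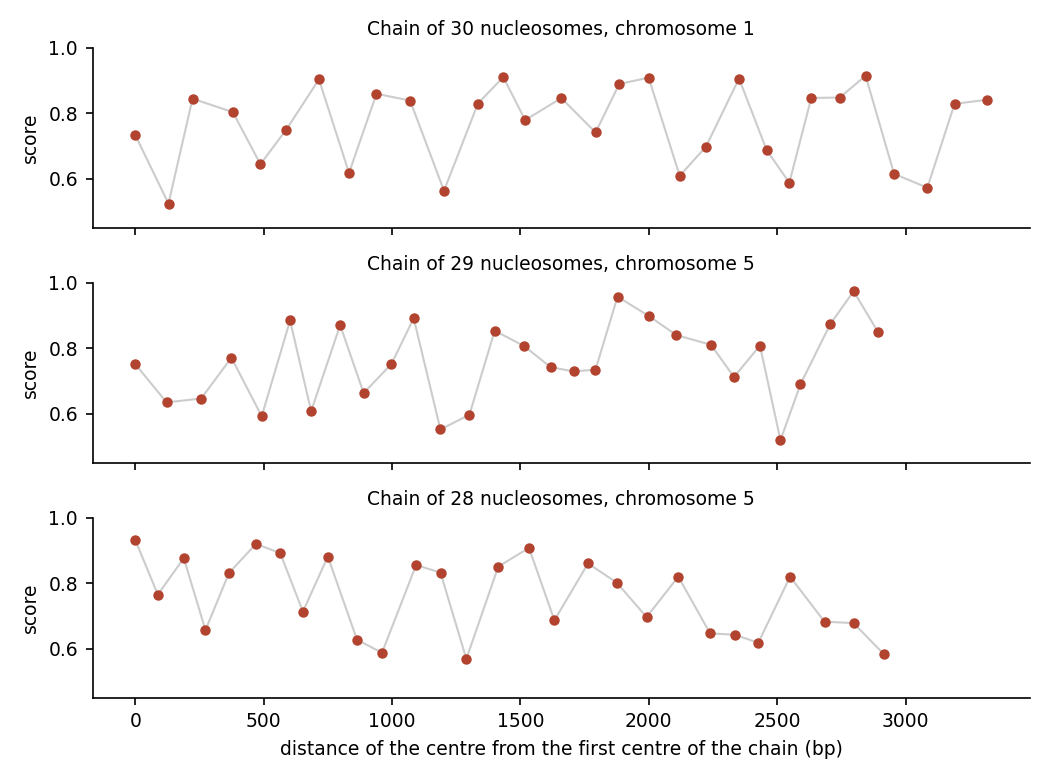
Score of each nucleosome (authors' unit; the axis does not start at 0) against the distance of its centre from the first centre of the chain in bp, for the 3 longest chains; points are nucleosomes and lines join neighbours. Scores run from 0.524 to 0.914 in the chain of 30, from 0.519 to 0.974 in the chain of 29 and from 0.569 to 0.932 in the chain of 28.

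A pair of chains of 26 nucleosomes were the longest on the arms, both enclosed by a pseudogene. That on chromosome 5 at 16700987 to 16703753 in AT5G41755 had a median score of 0.766 and a mean step of 104 bp, and 6 of its nucleosomes reached the median of the list. That on chromosome 1 at 7065893 to 7068456 in AT1G20390 had a median score of 0.800 and a mean step of 97.3 bp, and 13 of its nucleosomes reached it. AT1G20390 held 39 chain nucleosomes in 2 chains.

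The 1 chain among the 10 longest without a pseudogene lay in the region of the mitochondrial insert, on chromosome 2 at 3254085 to 3256618. It had 25 nucleosomes, of which 14 had their centre in the protein-coding gene AT2G07779, and it also met the tRNA gene AT2G07743. Its median score was 0.725. The remaining 4 lay in gene-poor windows and had 22 or 23 nucleosomes each. The one on chromosome 2 at 3979453 to 3981958 in AT2G10330 had the lowest median score of the 10, 0.660, and the one on chromosome 5 at 11716574 to 11718991 in AT5G31804 had 0.812.

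The longest chain of a chromosome had between 20 and 30 nucleosomes, with the lowest value on chromosome 3 and the highest on chromosome 1. On chromosomes 3 and 4 several chains tied in number. Of these the one with the widest span lay at 13830902 to 13833189 on chromosome 3, with 20, and at 4404615 to 4407081 on chromosome 4, with 21.

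Among pseudogenes, the 10 with most nucleosomes of 1 chain held between 20 and 30 of them. In gene-poor windows lay 8 of these 10, as did 729 of the 992 crossed pseudogenes and 2645 of all 3917. A chain spanned between 36.1 and 76.8% of each of the 10, whose lengths ran from 2733 to 6381 bp. The share was highest in AT5G32107 on chromosome 5, where 21 nucleosomes of a chain of 23 lay inside and the chain spanned 76.8% of the pseudogene. In AT5G31980, also on chromosome 5, a chain of 20 at 11578643 to 11580652 spanned 73.5% and had a median score of 0.833. AT2G11800 on chromosome 2 held a chain of 22 at 4738736 to 4740937 over 50.9% of its length.

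Among protein-coding genes, the 10 with most nucleosomes of 1 chain held between 15 and 21 of them. All 10 lay on the arms, as did 799 of the 865 crossed protein-coding genes and 26431 of all 27444. AT2G07599 on chromosome 2 came first, with a chain of 21 at 3348830 to 3351064 that spanned 92.4% of the gene and had a median score of 0.762. It lies in the window of the mitochondrial insert, where the placing of reads was not tested. ATR (AT5G40820), the kinase that signals stalled replication and DNA damage, held a chain of 19 on chromosome 5 at 16346686 to 16348637. That chain spanned 17.5% of a gene of 11171 bp and had scores from 0.559 to 0.940.

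EXT6 (AT2G24980), an extensin of the cell wall, was spanned over 86.7% of its 1914 bp by a chain of 15 on chromosome 2 at 10622416 to 10624076, with a median score of 0.785. DWF1 (AT3G19820), an enzyme of brassinosteroid synthesis, held a chain of 16 over 63.2% of its length on chromosome 3 at 6879874 to 6881639, with a median score of 0.724. CSLD4 (AT4G38190), a cellulose synthase-like protein that acts in pollen tubes, held a chain of 15 over 41.1% of its length on chromosome 4 at 17911464 to 17913090. Its median score of 0.640 was the lowest of the 10. The highest were 0.832 in AT3G61720, with a chain of 16, and 0.831 in AT5G45470, with a chain of 17. AT2G01210, AT4G32420 and AT5G58620 (TZF9, a tandem zinc finger protein) completed the 10, with 17, 17 and 15 nucleosomes.

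Genes of the silencing pathway that RNA polymerase V serves, and of the remodelling complexes named in the title, were looked up in turn. Of 18 genes of the RNA-directed DNA methylation machinery 3 were crossed, or 16.7%, against 3.15% of all protein-coding genes. These genes are long, with a median of 4936 bp against 2078 bp for all protein-coding genes, and of all protein-coding genes between 4 and 8 kb 7.09% were crossed. NRPD1 (AT1G63020), the largest subunit of RNA polymerase IV, held a chain of 13, RDR2 (AT4G11130), the RNA-dependent RNA polymerase that makes double-stranded precursors, held 11, and SUVH2 (AT2G33290), which helps to bring RNA polymerase V to methylated DNA, held 8. NRPE1 itself was not crossed. Of 13 genes of SWI/SNF subunits 1 was crossed, or 7.69%. It was SYD (AT2G28290), a remodelling ATPase, with 22 chain nucleosomes in 2 chains over a gene of 17067 bp.

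Gene families with a shared symbol were read against the 3.15% of all protein-coding genes that were crossed, a share at which many families of this size hold no crossed gene. Of 56 families with 20 or more protein-coding genes, 28 had no crossed member. Among CHX genes, which encode cation/H+ exchangers, 5 of 22 were crossed (22.7%), and CHX25 (AT5G58460) held most, with 14 chain nucleosomes. Among ABCB transporters 6 of 27 were crossed (22.2%), among them ABCB6 with 12 chain nucleosomes and ABCB19, an auxin transporter, with 8. Among PUM genes, which encode Pumilio RNA-binding proteins, 4 of 25 were crossed (16%), including PUM22, a gene of 1086 bp with 9. The median gene length was 4999 bp for ABCB, 3024.5 bp for CHX and 2482 bp for PUM. Of all protein-coding genes, 3.48% were crossed between 2 and 4 kb and 7.09% between 4 and 8 kb. These families were picked as the highest of the 56, so their shares are a description. Among the families without a crossed member were LCR with 80 genes and NAC with 79, with median lengths of 584.5 and 1909 bp. They were picked by size from the 28 after the counts had been seen.

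Ribosomal RNA genes were crossed in 3 of 4 cases (75%, exact 95% interval 19.4 to 99.4%), tRNA genes in 3 of 625 (0.480%, exact 95% interval 0.0991 to 1.40%) and miRNA genes in 6 of 326 (1.84%, 0.678 to 3.96%). AT3G41768, an rRNA gene of 1808 bp on chromosome 3, held 16 chain nucleosomes, and AT2G01010, of the same length on chromosome 2, held 7. The 3 tRNA genes, all on chromosome 2, held 1 each. Among them AT2G07743 was met by the chain of 25 in the region of the mitochondrial insert. How reads of repeated sequence were placed is not stated, and its part in the rRNA and tRNA counts was not tested. None of the tRNA and miRNA genes held 8 nucleosomes of 1 chain, and 1 rRNA gene did.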

How the data were processed

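Per the submitters' processing notes, Bowtie and the TAIR10 build were used, with no role or version stated. No label or header names the nucleosome caller or defines the score. The deposited list gives each nucleosome a chromosome, start, end and score, per the file headers, and no genotype. Nucleosomes were sorted by chromosome and start and joined to runs where a start lay below the end before it, and runs of 8 or more were chains. Gene types and extents came from the RefSeq table of TAIR10.1 for 37899 nuclear gene models, matched by locus identifier and assigned by nucleosome centre. No genome sequence was used here. Peaks of step distributions were read after smoothing over 11 bp. Share intervals are exact Clopper-Pearson (95%), computed in Python 3.11.15 with scipy 1.17.1, numpy 2.4.6 and pandas 2.3.3. The run finder was tested on simulated lists. The members and lists were chosen with earlier results of these data known. Named were the 10 longest chains, the 10 protein-coding genes and 10 pseudogenes with most nucleosomes of 1 chain, up to 3 crossed genes per list, and the 3 highest and 3 lowest symbol families, of which 1 is not reported here.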

Additional observations from a re-analysis of the deposited data

How the results depend on the processing

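No alternative turned a direction, of those values that have one. The number of chains, the share of listed nucleosomes in chains and the step have no direction that could turn. Of 52 alternative values, these included, 14 stayed within their spread and 38 moved. The spread was the exact 95% interval for shares, 1.5 times for the number of chains, and 1 SD over chromosomes for medians, 0.612 bp for the step and 0.00377 for the score difference. Values follow in the order number of chains, share of listed nucleosomes in chains, share of chain nucleosomes in gene-poor windows, in protein-coding genes and in pseudogenes, and share of protein-coding genes and of pseudogenes crossed. With 6 or more nucleosomes they were 6355, 12.3%, 45.3%, 41.8%, 41.5%, 10.2% and 45.03%. With 10 or more they were 995, 3.02%, 55.7%, 26.2%, 56.7%, 1.15% and 14.4%. With overlaps of at least 20 bp there were 883 chains with 2.04% of nucleosomes, 32.3% of them in protein-coding genes and 52.9% in pseudogenes, 1.15% and 11.7% of genes were crossed, and the step was 98.5 bp. Among nucleosomes at or above the median score, 7 chains held 0.0297% of nucleosomes, 100% of them in gene-poor windows, 0% in protein-coding genes and 50.8% in pseudogenes, 0% and 0.102% of genes were crossed, the step was 106.25 bp and the score difference -0.00614. Without chromosome 2 the share in chains was 5.46%, in gene-poor windows 53.7%, in protein-coding genes 33.6%, and 2.94% of protein-coding genes were crossed. Windows of 250 kb put 53.7% of chain nucleosomes in gene-poor windows, and assignment by any overlap put 51.2% in pseudogenes. The score difference was -0.00663 against other overlapping nucleosomes and -0.0215 among intervals of 130 to 150 bp. Requiring 4 nucleosomes of 1 chain in the gene, an alternative chosen after seeing the data, left both crossed shares within their intervals. The number of chains depends on the least length and the overlap. The limit on score also removed about 50% of the nucleosomes, and the parts of both in the fall to 7 chains were not told apart. Depth per library is unknown.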
